A study of Homo sapiens with 2 samples.

Results

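The genes described here carry out amino acid synthesis, folate one-carbon metabolism and amino acid transport. They are 37 genes chosen by name, 26 enzymes and 11 transporters, and were taken by symbol from an expression table of 19989 genes, in which 37 of 37 had a row. Polyadenylated RNA was sequenced from hNCI-H716 cells, a line established from a human colorectal adenocarcinoma of the cecum and used as a model of the intestinal L-cell, the enteroendocrine cell that secretes glucagon-like peptide-1. The cells were left to attach to Matrigel for 24 h and were then kept for 48 h in DMEM with serum and antibiotics, at a glucose concentration of 5.5 mM (low glucose) or 25 mM (high glucose). There was 1 library per concentration, so that no difference below has a replicate check, and the effect of glucose and a difference between individual cultures cannot be told apart. Values are estimated counts scaled to the library total (CPM), and the steps between low CPM put the total estimated count at 21757805 for low glucose and 19456565 for high glucose. Each CPM can be read with a 95% Wilson interval and each log2 ratio of high over low glucose with an exact binomial interval at 95%, both of which cover counting error only.

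The label of the cells was checked against markers. Of 14 L-cell and enteroendocrine genes, 12 had a row, with a summed level of 4383 CPM in low and 4213 CPM in high glucose. The most abundant was GCG, the proglucagon gene, at 1951 CPM and 1811 CPM, while PYY and NEUROD1 had no row. Of the 11 averaging 1 CPM or more, 7 had a log2 ratio above 0, and the median was 0.01. The counting interval lay below 0 for 3 of the 11 (GCG, CHGA and CHGB), against 15.3% of all genes at that level. It lay above 0 for 2 (SCGN and PCSK1), against 16.4%. Of 9 genes of gut epithelium, 8 had a row, summing to 498 CPM and 565 CPM, with the keratin KRT8 the most abundant at 269.6 CPM and 291 CPM. The epithelial cadherin CDH1 and the keratin KRT20 were at 3 counts or fewer in each library. Villin (VIL1), a protein of the brush border, was at 11.6 CPM in low and 17.8 CPM in high glucose, a log2 ratio of 0.62 (counting interval 0.38 to 0.86) that is past the 1.5-fold used below. Of the 6 epithelial genes averaging 1 CPM or more, the interval lay above 0 for 4 (VIL1, CDX2, KRT18 and KRT8), against 16.4% of all genes at that level, and the median of the 6 was 0.17. For EPCAM and KRT19 the interval held 0, and KRT19, at 1.48 CPM and 0.989 CPM, had a log2 ratio of the other sign, -0.58 (-1.49 to 0.27). Some of these markers thus differed between the libraries too. Of 11 markers of leukocytes, endothelium, fibroblasts, muscle, erythroid cells and hepatocytes, 7 had a row, summing to 1271 CPM and 1232 CPM. Nearly all of that sum came from the collagen gene COL3A1, at 814 CPM and 743 CPM, and the albumin gene ALB, at 456 CPM and 488 CPM, whereas COL1A1 and HBB were at 3 counts or fewer in both libraries. The part of the marker genes in the results below was not tested.

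As background, cells build serine from a glycolytic intermediate, and serine hydroxymethyltransferases pass a carbon unit from serine to folate while releasing glycine. Folate enzymes in the cytosol and in mitochondria carry these units to purine, thymidylate and methionine synthesis. Amino acids that are not made are brought in by carriers, and many genes of synthesis and uptake are known targets of the transcription factor ATF4, which is made when cells sense a shortage of amino acids or stress in the endoplasmic reticulum.

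Between the libraries, the transporters were the role group with the lowest median, and the enzymes lay closer to the bulk of all genes: the median log2 ratio was -0.33 for the transporters and -0.09 for the 23 enzymes tested. A gene was called when its CPM differed by at least 1.5-fold, among the 13052 genes that averaged 1 CPM or more over both libraries. Of the 37 genes, 34 passed this filter, and ALDH1L1, GPT and BCAT1 did not. Lower in high glucose by at least 1.5-fold were 3 of the 34 (8.82%), against 2.5% of all genes tested, and all 3 were transporters, SLC6A9, SLC7A5 and SLC7A11. Since RNA was taken from whole cultures, fewer cells of a kind and less RNA per cell cannot be told apart. Higher by at least 1.5-fold were 0 of the 34, against 1.16% of all genes tested. The log2 ratios of the 34 genes ran from -1.14 to 0.43 with a median of -0.12, and the median of all genes tested was -0.002.

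Most differences among the 37 genes were smaller than that fold and larger than counting error. The counting interval of the ratio lay below 0 for 19 of the 34 genes, against 15.3% of all genes tested, and above 0 for 8 of them, against 16.4%. For the other 7 genes the interval held 0. Counting precision depends on the level, and 32 of the 34 averaged 10 CPM or more. At that level the interval lay below 0 for 18 of the 32, against 17.1% of the 9345 such genes in the table, and above 0 for 8 of the 32, against 21.3%. By the 1.5-fold rule, 2 of the 32 were called lower (SLC7A5 and SLC7A11), against 0.3% of all, and 0 of the 32 were called higher, against 0.15%. Summed over the 37 genes, the level was 5084 CPM in low and 4749 CPM in high glucose.

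**Figure D1:**
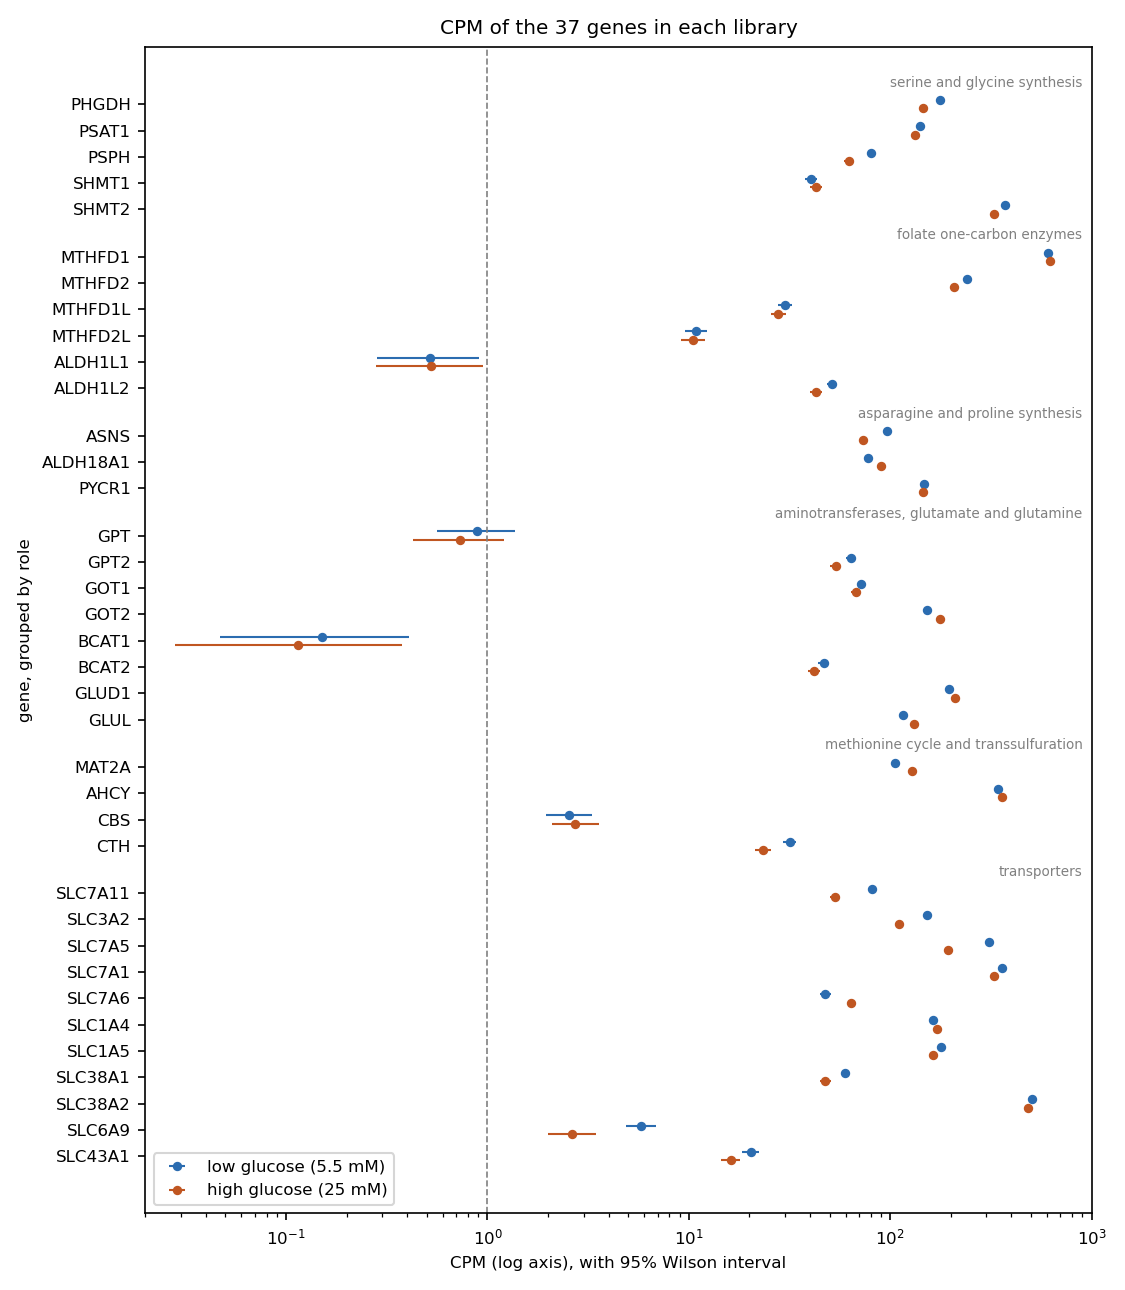
CPM of each of the 37 genes (log axis) in low glucose (blue) and high glucose (orange), grouped by role. Bars are 95% Wilson intervals, which cover counting error only, and the dashed line marks 1 CPM, under which ALDH1L1, GPT and BCAT1 lie.

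The promoters of the genes were examined because several of them differed in the same direction. Windows of 300 bases, from 250 before to 50 after a start site, were taken from RefSeq on build GRCh38.p14 and matched by symbol for 29 of the 37 genes, which have 51 windows between them because some genes have several starts. The genes with no entry were PSPH, SHMT2, ALDH1L2, PYCR1, GPT, GPT2, SLC7A11 and BCAT2. Both strands were searched for TGATGNAA, the core of the C/EBP-ATF response element to which ATF4 dimers bind, for CACGTG, an E-box, and for TGACNNNGC, the core of the antioxidant response element. No matches of different motifs overlapped in these windows. TGATGNAA was found in 11 of the 51 windows (21.6%), against 3.62% of all 35116 promoter windows. Windows of 1 gene can overlap, and the 11 windows hold 9 different matches because 3 windows of MTHFD1L share theirs. Counted by gene it was found for 9 of the 29 (31.0%), against 4.46% of the 27305 genes with an entry. Among genes that were tested it was found for 8 of 27 (29.6%), against 2.68% of 9165. The genes were chosen by name, and many genes of synthesis and uptake are known ATF4 targets. These shares are therefore no independent finding. The windows shown are those of ASNS, SLC3A2 and SLC38A1, each lower in high glucose by more than its counting error, and of SLC1A4, which has the motif and a log2 ratio of 0.07. The capitals mark the TGATGNAA match, written as its reverse complement where it lies on the other strand. The windows, 5' to 3' along the gene, are chr7:97872359-97872658 (minus strand), chr11:62881449-62881748 (plus strand), chr12:46266467-46266766 (minus strand) and chr2:64989149-64989448 (plus strand).
ASNS: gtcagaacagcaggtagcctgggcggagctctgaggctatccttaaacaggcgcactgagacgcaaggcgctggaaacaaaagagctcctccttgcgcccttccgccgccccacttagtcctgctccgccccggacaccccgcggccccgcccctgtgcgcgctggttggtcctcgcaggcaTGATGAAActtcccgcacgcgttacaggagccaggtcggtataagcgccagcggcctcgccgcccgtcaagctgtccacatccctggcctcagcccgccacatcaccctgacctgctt
SLC3A2: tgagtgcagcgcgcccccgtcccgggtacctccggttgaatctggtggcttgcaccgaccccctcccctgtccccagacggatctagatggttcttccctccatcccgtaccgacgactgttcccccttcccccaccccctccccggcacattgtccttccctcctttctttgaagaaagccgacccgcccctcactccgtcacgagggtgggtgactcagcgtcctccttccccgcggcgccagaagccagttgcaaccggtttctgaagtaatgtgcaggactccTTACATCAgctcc
SLC38A1: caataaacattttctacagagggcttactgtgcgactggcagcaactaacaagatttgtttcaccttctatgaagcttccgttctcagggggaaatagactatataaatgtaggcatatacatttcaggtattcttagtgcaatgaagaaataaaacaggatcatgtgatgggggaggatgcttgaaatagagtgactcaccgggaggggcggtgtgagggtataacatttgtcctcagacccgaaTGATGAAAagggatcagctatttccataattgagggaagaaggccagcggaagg
SLC1A4: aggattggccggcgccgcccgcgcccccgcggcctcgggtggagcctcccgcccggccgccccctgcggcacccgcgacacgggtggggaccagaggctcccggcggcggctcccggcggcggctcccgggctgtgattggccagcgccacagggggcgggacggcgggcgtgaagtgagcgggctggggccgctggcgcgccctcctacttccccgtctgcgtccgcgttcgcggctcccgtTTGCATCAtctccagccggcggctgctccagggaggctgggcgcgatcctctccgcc

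Counted from the start site, the match lay at bases -68 to -61 in the window of ASNS, at 38 to 45 in that of SLC3A2, at -4 to 4 in that of SLC38A1 and at -7 to 1 in that of SLC1A4. The other genes with TGATGNAA in a window were GOT1, MTHFD1L, SLC1A5, SLC7A1 and BCAT1. The 8 of these 9 genes that passed the filter on low values had a median log2 ratio of -0.13, within a range of -0.47 to 0.07, and none of them was called. The 19 tested genes whose windows lack these letters had a median of 0.02 and a wider range, from -1.14 to 0.43. Of these, 2 were called lower, SLC6A9 and SLC7A5. Since 2.5% of all genes tested were called lower, groups of 8 and 19 genes are too small for these counts to be compared. The genes with no entry are in neither group. Those of them that passed the filter all had negative log2 ratios, from -0.61 (SLC7A11) to -0.02 (PYCR1). The median of all 34 genes tested was -0.12, and the difference between the medians of the groups with and without the motif was not tested. A match is a description of the letters and no evidence of binding, and its absence says only that the letters are not in the window.

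CACGTG was found in 9 of the 51 windows (17.6%), which hold 7 different matches for the same reason, against 7.26% of all windows, and for 7 of the 29 genes (ALDH18A1, BCAT1, MTHFD1, MTHFD1L, SLC1A5, SLC43A1 and SLC7A5), which is 24.1%, against 8.77% of the genes with an entry. Among tested genes it was found for 6 of 27 (22.2%), against 12.8%. TGACNNNGC was found in 9 of the 51 windows (17.6%), against 13.3% of all windows, and for 9 of the 29 genes (CBS, GOT2, MTHFD2, MTHFD2L, SLC1A5, SLC3A2, SLC7A1, SLC7A5 and SLC7A6), which is 31.0%, against 16.1% of the genes with an entry. Among tested genes it was found for 9 of 27 (33.3%), against 19.7%. The genes have more windows each than the average gene, so the shares by gene are not matched for the bases searched. The window of SLC7A5, the called gene with the highest level per kb of transcript, is chr16:87869458-87869757 on the minus strand, from the same source, and is shown with its CACGTG in capitals, at bases -130 to -125 from the start site.
SLC7A5: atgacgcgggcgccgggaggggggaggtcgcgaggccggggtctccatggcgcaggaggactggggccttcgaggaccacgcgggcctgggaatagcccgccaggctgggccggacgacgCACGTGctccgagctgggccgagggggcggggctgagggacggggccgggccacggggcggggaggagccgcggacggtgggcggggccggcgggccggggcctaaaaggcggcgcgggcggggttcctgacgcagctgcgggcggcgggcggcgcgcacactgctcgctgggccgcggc

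The 11 transporters had a median log2 ratio of -0.33, with 9 of them below 0, against 50.4% of all genes tested, and 3 called lower, against 2.5%. In GENCODE v29 on GRCh38 the called genes lie at chr16:87830023-87869488 (SLC7A5), chr4:138164097-138242349 (SLC7A11) and chr1:43991500-44031467 (SLC6A9), all on the minus strand. SLC7A5, the LAT1 light chain that exchanges glutamine for leucine and other large neutral amino acids, was at 308 CPM (Wilson interval 300.2 to 315) in low and 193 CPM (187 to 199.6) in high glucose. The log2 ratio was -0.67 (counting interval -0.73 to -0.61), a level 37.1% lower in high glucose, and it ranked 238th from the lowest of the 13052 genes and 16th of the 9345 genes averaging 10 CPM or more. SLC7A11, the xCT light chain that takes up cystine in exchange for glutamate, was at 81.1 CPM in low and 53.2 CPM in high glucose. Its log2 ratio of -0.61 (-0.72 to -0.50) ranked 297th and 22nd in the same orders, and its interval reaches to the other side of the 1.5-fold threshold, which is 0.58 on the log2 scale. Both light chains work only when joined to the heavy chain SLC3A2 (4F2hc or CD98), which holds them at the plasma membrane. SLC3A2 was at 153 CPM in low and 110.5 CPM in high glucose, a log2 ratio of -0.47 (-0.55 to -0.39) that was not called and ranked 556th. It was the transporter nearest to the threshold without passing it.

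SLC7A6 (y+LAT2), a light chain that exchanges arginine for glutamine and sodium and also pairs with SLC3A2, went the other way. It was at 47.6 CPM in low and 64.2 CPM in high glucose, with a log2 ratio of 0.43 (0.31 to 0.55), the highest among the 37 genes and 317th from the top of all genes tested. On the other strand, SLC7A6OS overlaps 44.4% of the exon bases of SLC7A6, and the library kit is not stated to keep strand, so the level of SLC7A6 is uncertain. SLC7A6OS was itself at 28.4 CPM in low and 32.0 CPM in high glucose, a log2 ratio of 0.17. Of the remaining light chains that pair with SLC3A2, SLC7A8 was at 0.931 CPM and 0.526 CPM, and SLC7A7 and SLC7A10 had no row.

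The transporter with the lowest ratio was SLC6A9 (GlyT1), which brings glycine into the cell with sodium and chloride. It was at 5.80 CPM (4.86 to 6.89) in low and 2.63 CPM (1.99 to 3.45) in high glucose, from 126 and 51 estimated counts. The log2 ratio of -1.14 (-1.64 to -0.66) ranked 51st from the lowest of all genes tested, and the whole interval lay beyond the 1.5-fold threshold. CCDC24, on the other strand, covers 7.83% of its exon bases and was at 0.885 CPM and 0.783 CPM. Ratios spread more widely at low CPM, as the plot of ratio against mean CPM shows for all genes.

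The sodium-coupled SNAT carriers SLC38A1 and SLC38A2 take up glutamine, alanine and other small neutral amino acids. SLC38A1 was at 59.9 CPM in low and 47.7 CPM in high glucose, with a log2 ratio of -0.33 (-0.45 to -0.21). SLC38A2, which lies close to SLC38A1 on chromosome 12, was at 504 CPM and 481 CPM, a log2 ratio of -0.07 (-0.11 to -0.03). Neither was called, and both intervals lay below 0. SLC43A1 (LAT3), a sodium-independent carrier of branched-chain and other large neutral amino acids, was at 20.2 CPM and 16.2 CPM, with a log2 ratio of -0.33 (-0.54 to -0.11).

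The last carriers differed little. SLC7A1 (CAT1), the main carrier of arginine and lysine in many cells, was at 358 CPM in low and 327 CPM in high glucose, a log2 ratio of -0.13 (-0.18 to -0.08). SLC1A5 (ASCT2), an exchanger of glutamine, serine and other neutral amino acids, was at 179 CPM and 163 CPM, a log2 ratio of -0.14 (-0.20 to -0.07). Its relative SLC1A4 (ASCT1), which favours alanine, serine and cysteine, was at 163 CPM and 171 CPM, a log2 ratio of 0.07. The lower bound of the interval of SLC1A4, 0.0015, passed below 0 when the libraries were scaled by the trimmed mean of M-values (TMM).

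**Figure D2:**
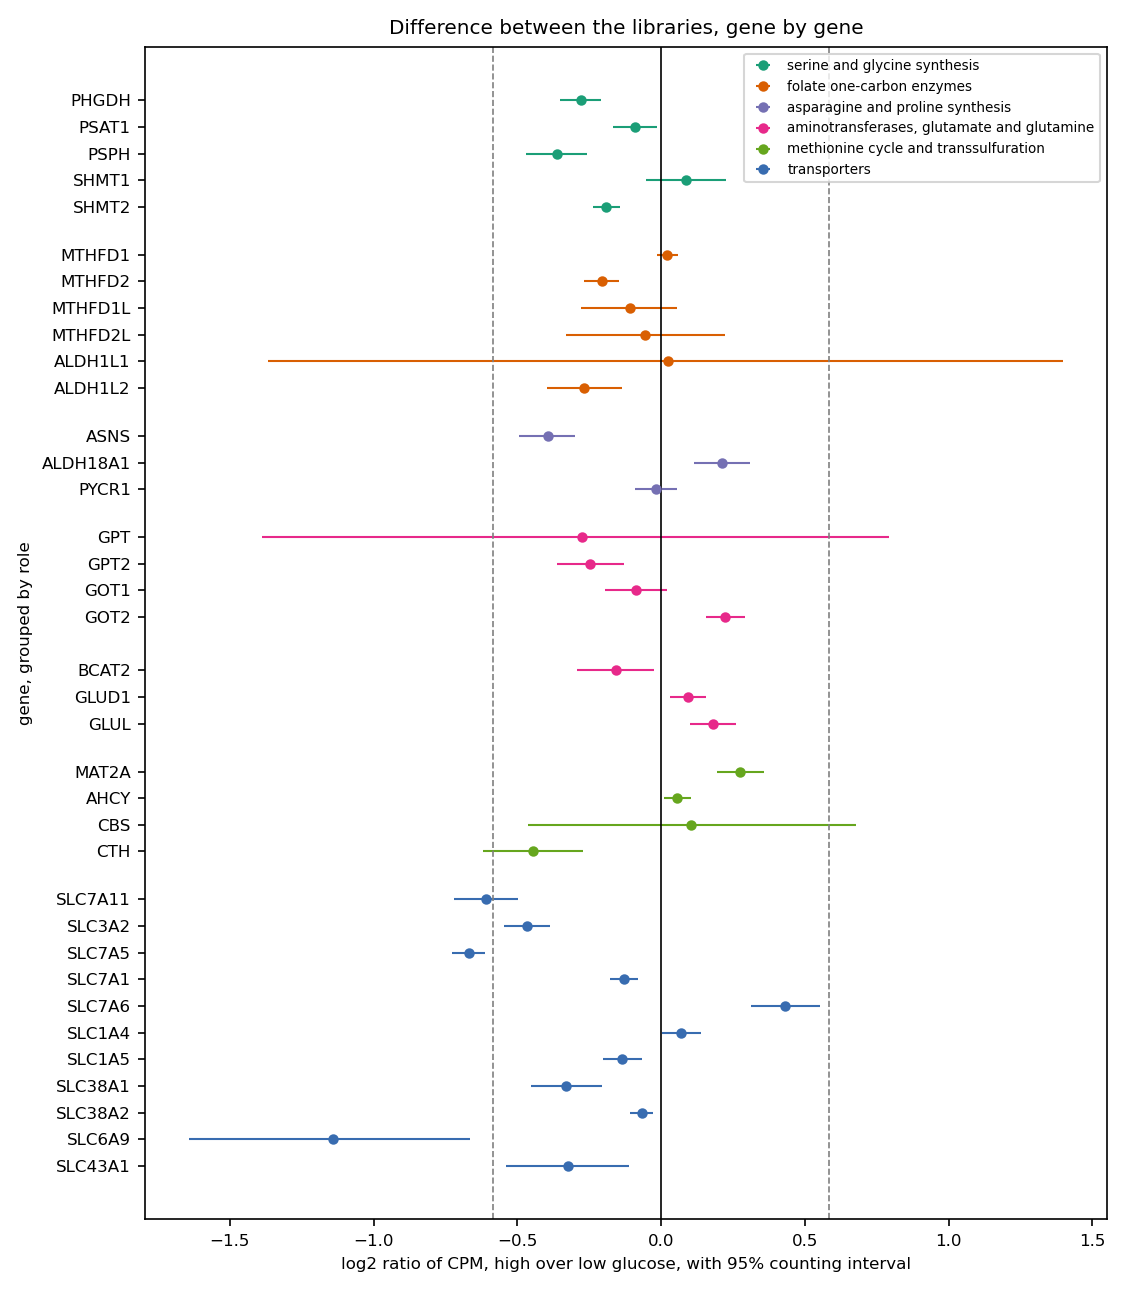
Log2 ratio of CPM, high over low glucose, of the 36 genes with more than 3 counts in at least 1 library, coloured by role, with exact binomial 95% intervals that cover counting error only. The dashed lines mark 1.5-fold. SLC6A9, SLC7A5 and SLC7A11 lie beyond the line on the left, and none of the genes tested lies beyond the line on the right.

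Among the 5 genes of serine and glycine synthesis the median log2 ratio was -0.19, with 4 of 5 below 0 and none called. PHGDH, which oxidises 3-phosphoglycerate from glycolysis and commits it to serine, was at 177 CPM in low and 146 CPM in high glucose, with a log2 ratio of -0.28 (-0.35 to -0.21). PSAT1, the aminotransferase of the next step, was at 141 CPM and 132 CPM, a log2 ratio of -0.09 (-0.17 to -0.02). PSPH, the phosphatase that releases serine, was at 80.1 CPM and 62.3 CPM, a log2 ratio of -0.36 (-0.47 to -0.26). The ratio was thus below 0 at each step of the pathway, by less than 1.5-fold. The mitochondrial serine hydroxymethyltransferase SHMT2 was at 372 CPM and 326 CPM, a log2 ratio of -0.19 (-0.24 to -0.14). Its cytosolic counterpart SHMT1 was at 40.4 CPM and 42.9 CPM, and the interval of its log2 ratio of 0.09 held 0 (-0.05 to 0.23).

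The folate enzymes had a median log2 ratio of -0.11 over the 5 of 6 tested, with none called. MTHFD1, which interconverts folate one-carbon units in the cytosol, was at 610.1 CPM in low and 619 CPM in high glucose, with a log2 ratio of 0.02 (-0.01 to 0.06). In mitochondria the same conversions are divided among MTHFD2, MTHFD2L and MTHFD1L. MTHFD2 was at 239.7 CPM and 208 CPM, a log2 ratio of -0.21 (-0.27 to -0.15). MTHFD1L was at 30.02 CPM and 27.8 CPM, and MTHFD2L at 10.9 CPM and 10.5 CPM, and the intervals of both log2 ratios, -0.11 and -0.06, held 0.

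The formyltetrahydrofolate dehydrogenases oxidise excess formyl units to carbon dioxide. The mitochondrial form ALDH1L2 was at 51.5 CPM in low and 42.8 CPM in high glucose, a log2 ratio of -0.27 (-0.40 to -0.14). The cytosolic form ALDH1L1 was at 0.518 CPM and 0.526 CPM, from 11 and 10 estimated counts, and at this depth no difference was detectable (log2 ratio 0.02, interval -1.37 to 1.40).

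The enzymes of asparagine and proline synthesis did not share a direction. ASNS, which makes asparagine from aspartate and glutamine, was at 96.7 CPM (92.7 to 100.9) in low and 73.5 CPM (69.8 to 77.4) in high glucose. Its log2 ratio was -0.40 (-0.49 to -0.30), a level 24.0% lower in high glucose, and ranked 765th of all genes tested. ALDH18A1, which starts proline synthesis by reducing glutamate, was at 77.5 CPM and 89.7 CPM, a log2 ratio of 0.21 (0.11 to 0.31). PYCR1, the mitochondrial reductase of the last step, was at 147 CPM and 146 CPM, and the interval of its log2 ratio of -0.02 held 0 (-0.09 to 0.05). None of the 3 was called.

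The aminotransferases and the enzymes of glutamate and glutamine had a median log2 ratio of 0.003 over the 6 of 8 tested, which became -0.0011 under TMM scaling, and none was called. GPT2, the mitochondrial alanine aminotransferase, was at 63.5 CPM in low and 53.6 CPM in high glucose, a log2 ratio of -0.25 (-0.36 to -0.13). The cytosolic form GPT was at 0.885 CPM and 0.732 CPM, too few counts for its log2 ratio of -0.28 (-1.39 to 0.79) to be told from 0. The aspartate aminotransferases are the paired enzymes of the malate-aspartate shuttle. GOT1, the cytosolic form, was at 71.5 CPM and 67.3 CPM, a log2 ratio of -0.09 (-0.20 to 0.02). GOT2, the mitochondrial form, was at 152 CPM and 178 CPM, a log2 ratio of 0.22 (0.15 to 0.29).

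BCAT2, the mitochondrial aminotransferase of leucine, isoleucine and valine, was at 46.8 CPM in low and 41.9 CPM in high glucose, a log2 ratio of -0.16 (-0.29 to -0.02). The cytosolic form BCAT1 was at 0.150 CPM and 0.115 CPM, from 3 and 2 estimated counts, so no fold is given. GLUD1, the mitochondrial glutamate dehydrogenase, was at 196 CPM and 209 CPM, a log2 ratio of 0.09 (0.03 to 0.16). GLUL, the glutamine synthetase, was at 116 CPM and 131 CPM, a log2 ratio of 0.18 (0.10 to 0.26). In this group the interval thus lay above 0 for 3 of the 6 genes tested (GOT2, GLUD1 and GLUL), against 16.4% of all genes tested. It lay below 0 for 2 (GPT2 and BCAT2), against 15.3%, and both had the same sign as ASNS.

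Among the 37 genes, MAT2A and AHCY belong to the methionine cycle. MAT2A, which makes S-adenosylmethionine, was at 106 CPM in low and 128 CPM in high glucose, a log2 ratio of 0.28 (0.19 to 0.36) that was the highest among the enzymes. AHCY, which clears S-adenosylhomocysteine, was at 343 CPM and 357 CPM, a log2 ratio of 0.06 (0.01 to 0.10). Transsulfuration turns homocysteine into cysteine. CTH, its second enzyme, was at 31.8 CPM and 23.3 CPM, and the log2 ratio of -0.44 (-0.62 to -0.27) was the lowest among the enzymes and ranked 612th. CBS, the enzyme before CTH, was at 2.54 CPM and 2.73 CPM, with an interval that held 0 (log2 ratio 0.10, -0.46 to 0.68).

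The value of CBS is uncertain because the annotation holds a near-identical copy, CBSL, on the same chromosome, between which reads can be divided. CBSL was at 75.3 CPM in low and 67.7 CPM in high glucose, so that the row of CBS held 3.27% and 3.88% of the sum of both. The summed level was 77.8 CPM and 70.4 CPM, a log2 ratio of -0.14 (-0.25 to -0.04), which differs in sign from that of CBS alone. No row was named as one of the 37 genes followed by P and a number, so no processed copies were examined. Shared exon bases with a gene on the other strand were also found for MTHFD2, with SLC4A5 (27.2% of its exon bases, at 0.585 CPM and 0.299 CPM), and for MAT2A, with GGCX (12.4%, at 28.7 CPM and 30.9 CPM). On its own strand PYCR1 shares 14.1% of its exon bases with MYADML2, which was at 0.334 CPM and 0.166 CPM. SHMT1 shares 2.69% of its exon bases with SMCR8 on the other strand, which was at 43.7 CPM and 39.6 CPM. Shares under 2% were found for SHMT2 (with NDUFA4L2), MTHFD1 (ZBTB25) and ALDH1L2 (C12orf45), also on the other strand. Reads from the shared bases cannot be assigned to 1 gene, so these values are uncertain, and how many such reads there were was not tested.

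**Figure D3:**
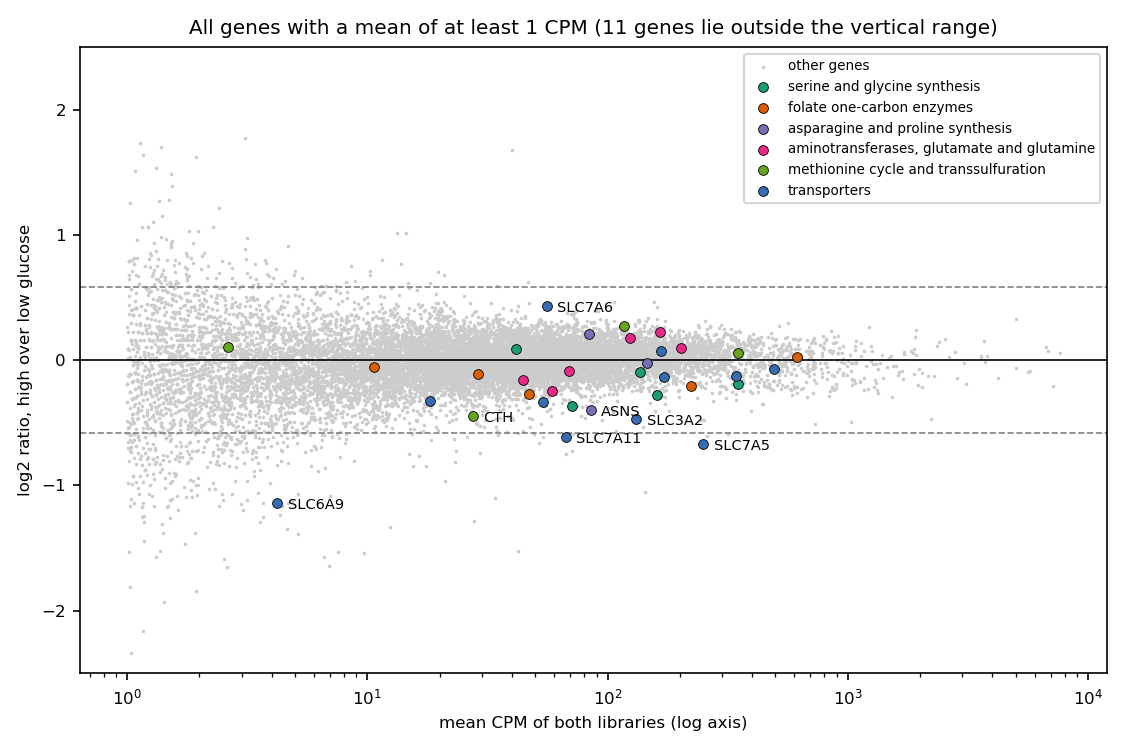
Log2 ratio of high over low glucose against mean CPM (log axis) for the genes averaging 1 CPM or more, except 11 that lie outside the vertical range. The 34 genes tested are coloured by role, those with a log2 ratio of more than 0.38 in size are named, and the dashed lines mark 1.5-fold.

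Levels between related genes were compared per kb of transcript, with the length of the principal transcript in GENCODE v29. Where a cytosolic and a mitochondrial enzyme carry out the same reaction, the mitochondrial gene had the higher level per kb in both libraries for SHMT2, GOT2, GPT2 and ALDH1L2. SHMT2 stood at 147 CPM per kb in low glucose against 16.4 for SHMT1, a ratio of 8.95, and the ratio was 7.39 in high glucose. GOT2 stood at 61.8 CPM per kb against 24.5 for GOT1, a ratio of 2.52 in low and 3.13 in high glucose. For GPT2 over GPT the ratios were 33.9 and 34.6. For ALDH1L2 over ALDH1L1 they were 43.2 and 35.3. BCAT2 stood at 30.1 CPM per kb in low glucose, and BCAT1 was near the limit of detection.

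The trifunctional enzyme of the cytosol was the exception. MTHFD1 stood at 194.5 CPM per kb in low glucose against 8.33 for the mitochondrial MTHFD1L, a ratio of 23.4, and the ratio was 25.6 in high glucose. Within mitochondria, MTHFD2 exceeded MTHFD2L by a ratio of 11.3 in low and 10.2 in high glucose. Among the transporters, SLC38A2 exceeded SLC38A1 by a ratio of 13.9 in low and 16.6 in high glucose, and SLC1A5 exceeded SLC1A4 by 1.74 and 1.51. With another transcript length the ratios of MTHFD1 over MTHFD1L, MTHFD2 over MTHFD2L and SLC38A2 over SLC38A1 moved by over 1.5 times and kept their direction. For the light chains of SLC3A2, SLC7A5 stood at 67.8 CPM per kb in low and 42.6 in high glucose, against 70.7 and 51.1 for SLC3A2 itself. SLC7A11 stood at 8.41 and 5.51. SLC7A6 stood at 7.55 and 10.2, so that the ratio of SLC7A5 over SLC7A6 was 8.98 in low and 4.19 in high glucose, while that of SLC7A5 over SLC7A11 was 8.06 and 7.73.

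**Figure D4:**
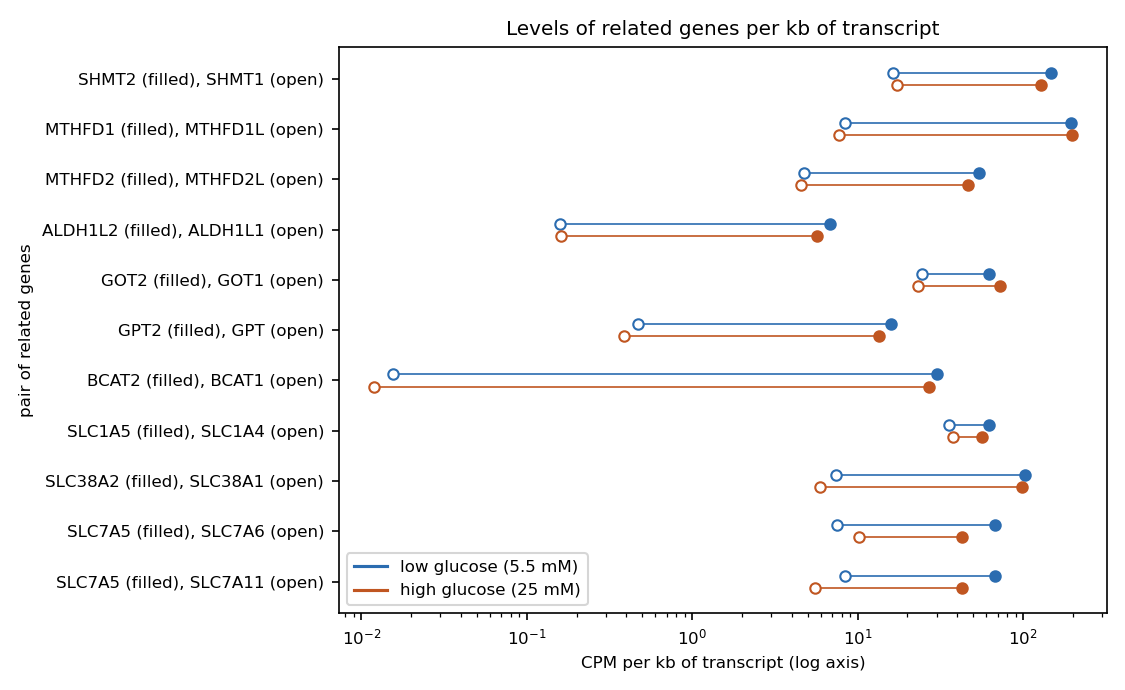
CPM per kb of transcript (log axis) of related genes, 1 pair per line, in low glucose (blue) and high glucose (orange). The named gene with the filled point lies to the right of the gene with the open point in every pair and in both libraries, and the gap between SLC7A5 and SLC7A6 is narrower in high glucose.

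Of 145 further genes in 8 lists of neighbouring pathways, 116 had a row and 99 were tested, with a median log2 ratio of 0.02. Of these 99 genes, 1 was called lower and 0 were called higher at 1.5-fold, against 2.5% and 1.16% of all genes tested. The interval lay below 0 for 15 and above 0 for 22 of them, against 15.3% and 16.4%. The called gene was PRODH, the proline dehydrogenase, which is named because of its call and was at 2.58 CPM in low and 1.60 CPM in high glucose, with an interval that reaches to the other side of the threshold. The 7 tested genes among the other plasma membrane amino acid transporters had a median of 0.10 and none was called, beside the -0.33 of the 11 transporters described above. Some of the 7 averaged under 10 CPM. The interval lay below 0 for 1 of the 7 and above 0 for 1, against the same 15.3% and 16.4%. Among the 7 were the arginine carrier SLC7A2, at 167 CPM and 148 CPM (log2 ratio -0.17), and the taurine carrier SLC6A6, at 30.1 CPM and 38.2 CPM (0.34).

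By list, the medians were 0.01 for 6 tested genes of serine, glycine and glycine cleavage, 0.08 for 15 other folate genes, 0.03 for 13 genes of methionine, cysteine and glutathione, and -0.03 for 11 genes of proline, ornithine, arginine and urea. They were -0.01 for 12 genes of glutamine, glutamate, aspartate and asparagine, 0.01 for 18 genes of branched-chain amino acid breakdown and -0.04 for 17 lysosomal and mitochondrial carriers. The folate list held the purine synthesis enzyme GART, at 89.5 CPM in low and 104 CPM in high glucose (log2 ratio 0.22). The lowest ratio among the lysosomal and mitochondrial carriers was that of SLC38A7, a lysosomal carrier of glutamine and asparagine, at 34.9 CPM and 24.3 CPM (-0.52). The highest ratio among these carriers was 0.29. Their interval lay below 0 for 2 and above 0 for 4 of the 17, against 15.3% and 16.4% of all genes tested. GFPT1, which uses glutamine to start hexosamine synthesis, was at 259.5 CPM and 211 CPM (-0.30). This was the lowest ratio of the glutamine, glutamate, aspartate and asparagine list, in which the highest was 0.27. In that list the interval lay below 0 for 4 and above 0 for 3 of the 12 genes, against the same 15.3% and 16.4%.

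The 15 regulators of the amino acid response were lower as a list than the 37 genes. Their median log2 ratio was -0.60, with 13 of 15 below 0, against 50.4% of all genes tested. Of the 15, 9 were called lower and 0 higher, against 2.5% and 1.16%, and for 3 of the 9 (ATF4, ATF5 and SESN2) the counting interval reaches to the other side of the threshold. ATF4 itself was at 381 CPM in low and 254 CPM in high glucose (log2 ratio -0.59, -0.64 to -0.54), and the related factor ATF5 was at 313 CPM and 206 CPM (-0.60). The lowest ratios of the list were those of CHAC1, a glutathione-degrading enzyme, at 10.4 CPM and 3.35 CPM (-1.64), of the stress-induced NUPR1, at 14.4 CPM and 4.95 CPM (-1.54), and of DDIT3 (CHOP), at 63.1 CPM and 21.9 CPM (-1.52). DDIT4, an inhibitor of mTORC1, was at 193 CPM and 93.1 CPM (-1.05), and CEBPB at 27.98 CPM and 14.3 CPM (-0.96). TRIB3, a pseudokinase that inhibits ATF4, was at 84.3 CPM and 50.3 CPM (-0.74), and SESN2, a leucine sensor, at 65.1 CPM and 42.5 CPM (-0.61).

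The other regulators were not called. ATF3 was at 5.44 CPM in low and 3.66 CPM in high glucose (log2 ratio -0.57), and CEBPG, a dimer partner of ATF4, at 40.6 CPM and 32.3 CPM (-0.33). Those kinases in the list that phosphorylate the initiation factor eIF2 differed less. EIF2AK4 (GCN2), which senses uncharged tRNA, was at 55.5 CPM and 60.7 CPM (0.13), and EIF2AK3 (PERK), which senses unfolded proteins, at 59.0 CPM and 56.5 CPM (-0.06). Their substrate EIF2S1 was at 160.1 CPM and 181 CPM (0.18). NFE2L2 (NRF2), which acts through the antioxidant response element, was at 119.6 CPM and 118 CPM (-0.02). The 20 cytosolic aminoacyl-tRNA synthetases, several of which are also known ATF4 targets, had a median log2 ratio of 0.01 with none called. All 20 averaged 10 CPM or more, and their intervals lay below 0 for 8 and above 0 for 4, against 17.1% and 21.3% of all genes at that level. Their lowest ratios were those of CARS, at 59.9 CPM and 48.2 CPM (-0.32), and AARS, at 374 CPM and 309.9 CPM (-0.27), and the highest that of DARS, at 77.0 CPM and 88.1 CPM (0.19).

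**Figure D5:**
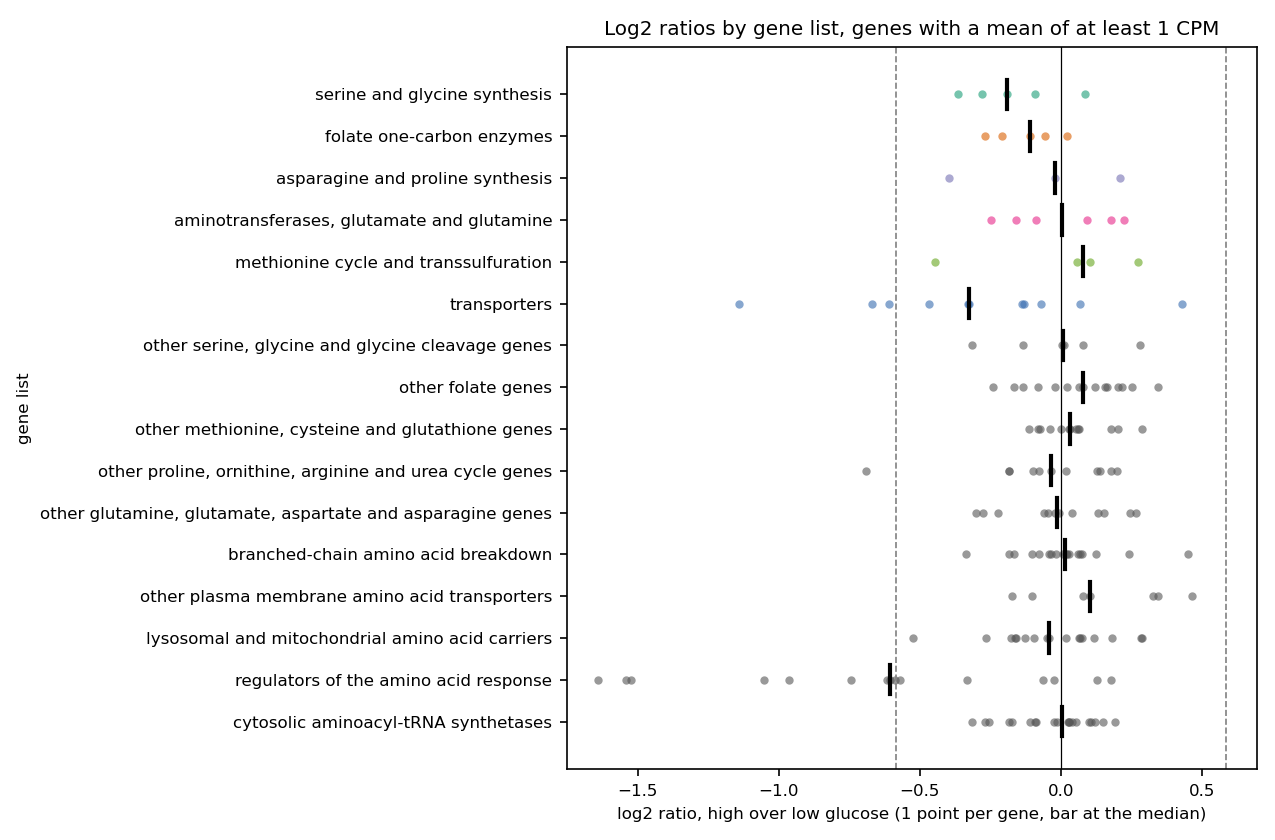
Log2 ratios of high over low glucose for each gene averaging 1 CPM or more (1 point per gene) in the role groups of the 37 genes (coloured) and in the lists of related genes (grey), with the median as a black bar. The transporters, at -0.33, and the regulators, at -0.60, have the lowest medians, and the dashed lines mark 1.5-fold.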

How the data were processed

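The authors' steps, per the study's methods and the submitters' processing notes, were trimming with Trim Galore 0.5.0, alignment to GRCh38 with STAR 2.6.0, estimation of counts with RSEM 1.3.1, removal of genes with very low totals and normalization in edgeR. The deposited values used here are CPM, with a small prior added by the authors. The deposited log2 difference and fold of high over low glucose are the authors' own comparison and were not used.

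The log2 ratio of deposited CPM was computed with scipy 1.17.1, pandas 2.3.3 and numpy 2.4.6 under Python 3.11.15, with no TMM factor applied. The study's methods name TMM, but with the prior taken off each column of CPM added up to 1000000, which leaves no such factor in it. Estimated counts were recovered from the steps of low CPM to give depth and intervals. Of the values under 10 CPM, 73.9% in low and 74.1% in high glucose came within 0.05 of a whole count. Estimated counts were rounded to whole counts for the intervals. No count model was run, as there was 1 library per concentration. The level that a count of 0 allows, 3 counts of the total, was 0.138 CPM for low and 0.154 CPM for high glucose. The calculations were checked on simulated data, and figures were drawn with matplotlib 3.10.9. Lengths and overlaps came from GENCODE v29, which holds 73.4% of the symbols, and overlapping genes were sought by symbol.

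The members and lists were chosen with earlier results of these data known. Named were all 37 genes, CBSL, all regulators and, of each other list, at most the 2 highest and 2 lowest ratios among genes averaging 10 CPM or more. Of these, 1 gene is not reported here, nor is 1 overlapping gene. Genes named outside this rule, PRODH, SLC7A7, SLC7A8, SLC7A10, overlapping genes and markers at low levels, were chosen after their values were seen. The alternatives changed the scaling, prior, filter, fold and motif strand.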

Additional observations from a re-analysis of the deposited data

How the results depend on the processing

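No paired analysis was possible because there was 1 library in low and 1 in high glucose. Of 200 recomputed values, 184 stayed within counting error or, for counts and ratios of levels, within 1.5 times the value reported, and 16 moved further. The sign differed for 1 of the 200, the sum of CBS and CBSL, whose log2 ratio of -0.14 lies within the counting interval of the 0.10 of CBS. The log2 ratios of 36 genes, recomputed 145 times, all stayed within their counting intervals, and TMM or median-of-ratios scaling moved them by at most 0.0044. A pseudocount of 1 CPM brought all 36 closer to 0, most of all SLC6A9, to -0.90, and GPT went to -0.12. The same 3 genes were called lower under both scalings. Under TMM the interval of SLC1A4 held 0, which left 7 intervals above 0 in place of 8. With the reverse strand left out, TGATGNAA was found for 6 genes in place of 9 (without GOT1, SLC1A4 and SLC3A2) and TGACNNNGC for 6 in place of 9 (without CBS, MTHFD2 and SLC1A5), while CACGTG, which reads the same on both strands, kept its 7.

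The counts of calls moved with the threshold by construction. At a fold of 5/4 (a log2 ratio of 0.32 in size), 9 of the genes were lower and 1 was higher, and of all genes 1048 were lower and 590 higher. At 2-fold, 1 of the genes was lower, and of all genes 79 were lower and 28 higher. Of all genes, 326 were lower and 152 higher in the main setting, against 126 and 42 with a pseudocount of 1 CPM, 2673 and 2015 with no filter on low values, and 28 and 14 among genes averaging 10 CPM or more.

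Chosen after seeing the data were the interval rule at either level, the sum of CBS and CBSL and the median transcript length. With that length, the ratio per kb in low glucose was 13.5 for MTHFD1 over MTHFD1L, 27.1 for MTHFD2 over MTHFD2L and 8.70 for SLC38A2 over SLC38A1. Depth limits GPT, ALDH1L1 and BCAT1, which had few counts. The row of CBS also had few counts, and reads can be divided between it and CBSL. The alignment of paralog proteins was not run.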
